A study of Homo sapiens with 10 samples.

Results

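The genes described here are 9 members of the death receptor pathway: the receptors FAS, TNFRSF10A, TNFRSF10B and EDA2R, the decoy receptors TNFRSF10C and TNFRSF10D, and the proximal components FADD, CASP8 and CFLAR. They were found by an exact match of the symbol in the gene tables of all 10 libraries, which hold 25593 entries with 25548 distinct symbols. All 9 were listed once in every library, and 7 of them passed the filter for testing, which required 2 or more libraries at an FPKM of 1 or above. TNFRSF10A and TNFRSF10D did not pass.

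RNA was sequenced from a pair of U2OS derivatives; U2OS is an established line from a human osteosarcoma. One line carries a control CRISPR/Cas9 construct and is labelled p53 WT, and the other is labelled p53 KO; the design text names SET as the CRISPR target while describing loss of p53, and each is therefore named here by its label, WT-labelled or KO-labelled. Both received, for 96 h, either control siRNA or siRNA directed at SET, which encodes a p53-binding histone chaperone that also inhibits protein phosphatase 2A. The groups were WT-labelled cells with control siRNA (WT_siCtr, n = 3), WT-labelled cells with SET siRNA (WT_siSET, n = 3), KO-labelled cells with control siRNA (KO_siCtr, n = 2) and KO-labelled cells with SET siRNA (KO_siSET, n = 2). The lines were obtained after selection and identification of clones, so p53 status and clonal differences cannot be told apart in any comparison of lines. Replicates are called biological without a statement that cultures were separate, and the p-values reflect only the variation among these libraries, which may be technical.

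Death receptors are cell surface proteins of the TNF receptor superfamily. On binding their ligands, FAS (ligand FASLG) and the TRAIL receptors TNFRSF10A (DR4) and TNFRSF10B (DR5; ligand TNFSF10) recruit the adaptor FADD through its death domain, and FADD recruits the initiator protease CASP8. CFLAR (c-FLIP) is a CASP8-like protein that competes for FADD and restrains activation, TNFRSF10C and TNFRSF10D bind TRAIL without a complete death domain, and EDA2R is the receptor for the A2 isoform of ectodysplasin. FAS, TNFRSF10B and EDA2R are long known as p53 target genes.

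Sequence is shown for FAS and CASP8 because, among the member promoter windows searched, theirs were the ones holding a match to the p53 decamer, the repeat unit of the p53 response element. RefSeq windows of GRCh38.p14 from 250 bases before to 50 bases after a gene's start were matched by symbol, which gave 3 windows for FAS, 3 for CASP8, 2 for EDA2R, 1 for FADD and 4 for CFLAR; TNFRSF10A, TNFRSF10B, TNFRSF10C and TNFRSF10D were not searched. The decamer, searched on both strands, was in 1 FAS window and 1 CASP8 window, against 6.63% of all 35116 windows of 300 bases. The FAS window also held a pair of decamers without spacer, with at most 2 mismatches and both cores intact, a form chosen after the FAS window had been seen and present in 0.157% of the windows (55). Capitals mark the pair of decamers in FAS, of which the first has 0 mismatches and the second 2, and the single decamer in CASP8.
FAS element, chr10:88991304-88991333, plus strand: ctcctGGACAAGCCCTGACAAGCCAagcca
CASP8 decamer, chr2:201257854-201257979, plus strand: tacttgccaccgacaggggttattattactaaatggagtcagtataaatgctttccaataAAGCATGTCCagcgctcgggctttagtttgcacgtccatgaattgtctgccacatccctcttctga

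In the GENCODE 29 annotation, the FAS stretch lies in the intron between exon 1 (88990657-88990906) and exon 2 (89003029-89003194) of transcript FAS-204, and within an exon of FAS-201, FAS-207 and a transcript of ACTA2. The CASP8 stretch was cut to end at the base before the next CASP8 exon, so its not reaching that exon was set by this choice. It overlaps no other exon and is intronic to 8 CASP8 transcripts. A match describes letters only. None of the deposited files measures binding at these positions.

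As a check of the labels, SET averaged 124 FPKM (fragments per kilobase of transcript, scaled to the mapped fragments of the library) in WT_siCtr, 12.5 in WT_siSET, 164 in KO_siCtr and 14.9 in KO_siSET. The p53 targets CDKN1A and MDM2 averaged 162 and 40.9 FPKM in WT_siCtr, 720.3 and 204 in WT_siSET, 6.67 and 14.4 in KO_siCtr, and 19.4 and 16.6 in KO_siSET. These values bear on the activity of p53 targets, and the CRISPR edit itself is not read by FPKM per gene. Of 7 osteoblast lineage markers 4 averaged at least 1 FPKM (RUNX2, ALPL, COL1A1 and SPP1), and SP7, BGLAP and COL1A2 did not. Their summed FPKM was 331 to 378 in WT_siCtr, 201 to 227 in WT_siSET, 267 to 322 in KO_siCtr and 170.3 to 184 in KO_siSET, so it was lower with SET siRNA in both lines. None of 5 blood and none of 4 endothelial markers did, with sums of at most 0.329 and 0.663 FPKM in any library. Of 5 epithelial markers 4 did, and their summed FPKM, mostly KRT8 and KRT18, was 665 to 699.8 in WT_siCtr, 500.0 to 512 in WT_siSET, 288 to 327 in KO_siCtr and 277 to 281 in KO_siSET. This sum was lower in the KO-labelled line and with SET siRNA in each line. EPCAM went the other way with SET siRNA, from a mean of 1.79 to 4.01 FPKM in WT-labelled and from 1.72 to 4.12 in KO-labelled cells, as did CDH1, from 0.9502 to 1.35 and from 0.420 to 0.575. KRT18 fell with SET siRNA in WT-labelled cells, from a mean of 283 to 222 FPKM. In KO-labelled cells it averaged 160 FPKM with control siRNA and 164 with SET siRNA, with overlapping libraries, while KRT8 went from 137 to 105. The part of these marker lists in the results below was not tested.

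Among the 7 tested members, FAS mRNA spanned the widest fold range of group means (the plot of FPKM by library). The gene, at chr10:90750288-90775542 in the coordinates of the files, was at 10.1, 10.3 and 10.1 FPKM in WT_siCtr and at 27.6, 27.1 and 26.3 in WT_siSET. In the KO-labelled line it was at 2.32 and 3.00 with control siRNA and at 1.64 and 1.86 with SET siRNA. The 4 groups did not overlap: SET siRNA libraries were above their controls in the WT-labelled line and below them in the KO-labelled line. In such bulk samples fewer cells expressing a gene and less RNA per cell cannot be told apart.

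TNFRSF10B, at chr8:22877646-22926700, was the most abundant member in 3 of the 4 groups and second to FADD in KO_siCtr. It was at 35.4, 34.0 and 35.2 FPKM in WT_siCtr and at 80.2, 79.4 and 78.6 in WT_siSET. KO_siCtr gave 20.6 and 19.4 FPKM, and KO_siSET 28.3 and 30.0. No groups overlapped, and SET siRNA libraries were the higher ones in both lines.

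EDA2R, at chrX:65815479-65859140, was at 16.8, 17.9 and 17.3 FPKM in WT_siCtr and at 39.3, 39.7 and 37.1 in WT_siSET. In KO-labelled cells it was at 3.74 and 4.05 FPKM with control siRNA and 3.74 and 4.06 with SET siRNA. Every KO-labelled library was below every WT-labelled one, and within the KO-labelled line the siRNA groups overlapped.

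**Figure D1:**
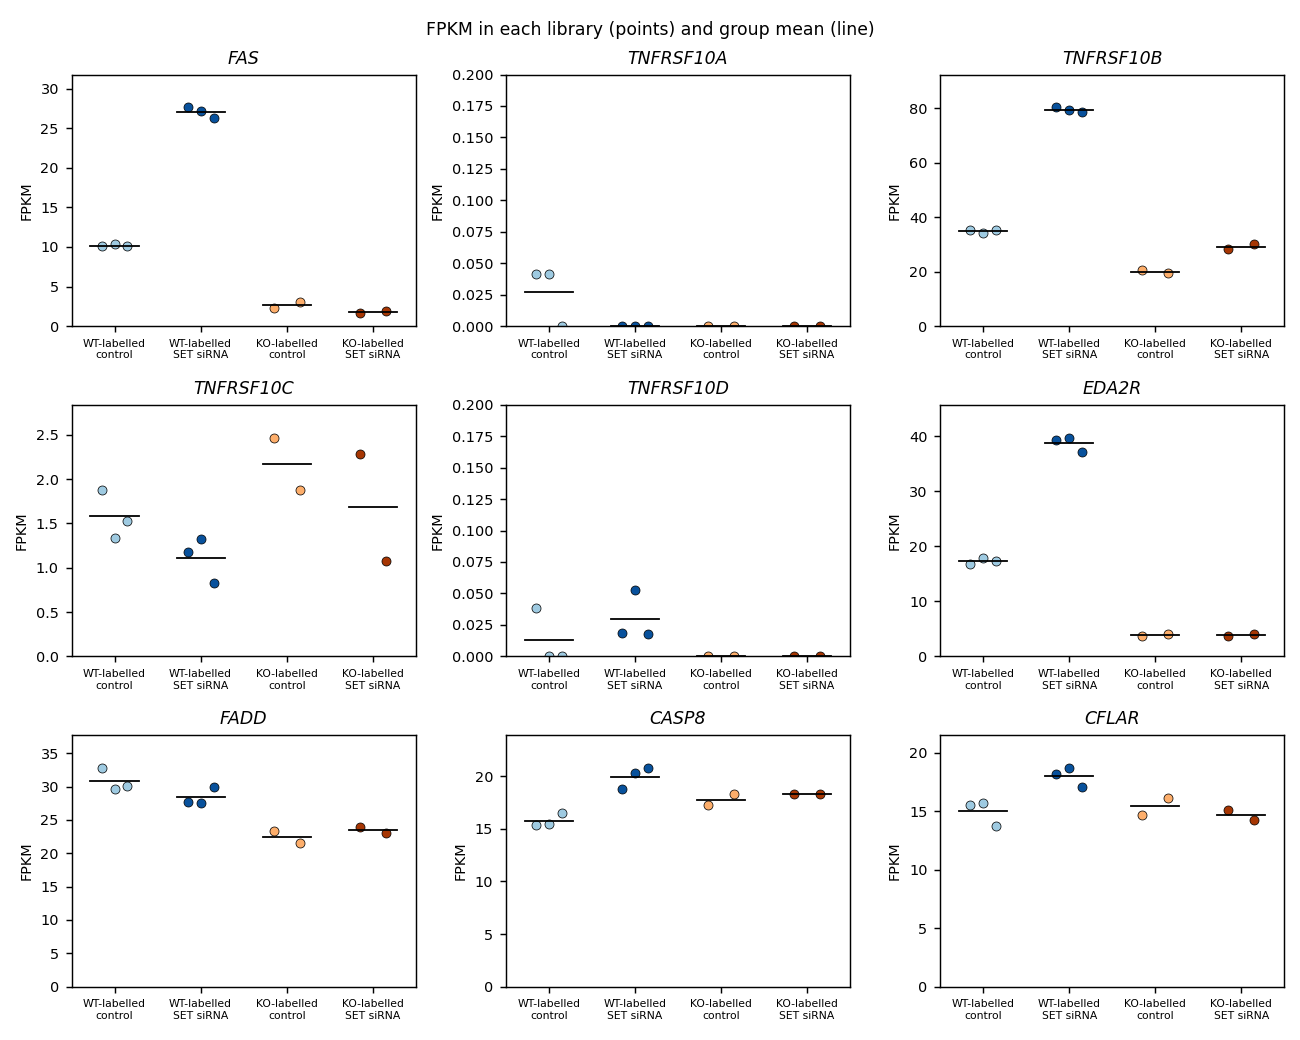
FPKM (vertical axes, each panel on its own scale) of the 9 members in each of the 10 libraries, by group (horizontal axis); points are libraries and bars are group means. FAS, TNFRSF10B and EDA2R are highest in the 3 WT-labelled libraries with SET siRNA, while FADD, CASP8 and CFLAR span narrower ranges and TNFRSF10A and TNFRSF10D stay near 0.

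The decoy TNFRSF10C, at chr8:22960327-22974950, was low everywhere. Its FPKM was 1.88, 1.34 and 1.52 in WT_siCtr, 1.17, 1.33 and 0.824 in WT_siSET, 2.47 and 1.88 in KO_siCtr, and 2.29 and 1.07 in KO_siSET. Taken as 2 SD of counting error, the authors' confidence intervals imply only 18 to 56 fragments per library for it, and they reached 26.7 to 47.1% above the value. For comparison, the implied fragments were 60 to 1137 for FAS, 1321 to 5276 for TNFRSF10B, 197 to 2175 for EDA2R, 615 to 851 for FADD, 366 to 738 for CASP8 and 240 to 373 for CFLAR.

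The other death-domain TRAIL receptor, TNFRSF10A (chr8:23048970-23082680), was listed at 0 in 8 libraries and at 0.0412 and 0.0414 FPKM in the first and second WT_siCtr libraries, about 1 implied fragment each. The decoy TNFRSF10D (chr8:22993101-23021540) was listed at 0 in 6 libraries, at 0.0381 in the first WT_siCtr library and at 0.0188, 0.0529 and 0.0176 in WT_siSET, which amounts to 7 implied fragments in all. Neither supports a comparison at this depth. All 4 TRAIL receptor genes lie in a row on chromosome 8 of the files, and 2 of the 4 were at or near 0. Because FPKM is per length, shares can be set side by side: TNFRSF10B made up 95.6% ± 0.708 (SD, n = 3) of the summed TRAIL receptor FPKM in WT_siCtr, 98.6% ± 0.329 (n = 3) in WT_siSET, 90.2% ± 1.32 (n = 2) in KO_siCtr and 94.5% ± 2.85 (n = 2) in KO_siSET.

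Of the proximal components, the adaptor FADD, at chr11:70049269-70053508, was at 32.8, 29.6 and 30.1 FPKM in WT_siCtr and 27.7, 27.5 and 29.9 in WT_siSET. It was at 23.3 and 21.5 in KO_siCtr and 23.98 and 22.99 in KO_siSET. All 4 KO-labelled libraries were below all 6 WT-labelled ones, and the siRNA groups overlapped within each line.

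The initiator caspase gene CASP8, at chr2:202098166-202152434, was at 15.4, 15.4 and 16.5 FPKM in WT_siCtr and 18.8, 20.3 and 20.8 in WT_siSET. In KO-labelled cells it was at 17.3 and 18.3 with control siRNA and 18.4 and 18.3 with SET siRNA. The WT-labelled groups did not overlap, and the KO-labelled libraries lay between them.

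CFLAR, the CASP8 antagonist at chr2:201980877-202037411, was at 15.6, 15.7 and 13.7 FPKM in WT_siCtr and 18.2, 18.7 and 17.1 in WT_siSET. KO_siCtr gave 14.6 and 16.1 FPKM, and KO_siSET 15.1 and 14.2. The 3 WT_siSET libraries were above the other 7. CFLAR and CASP8 are neighbours of CASP10 on chromosome 2. CASP10 itself, the other FADD-binding initiator caspase, was below the filter and was not tested. It averaged 0.212 FPKM in WT_siCtr, 0.437 in WT_siSET, 0.0758 in KO_siCtr and 0.0631 in KO_siSET, with at most 30 implied fragments in any library.

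The first comparison asked how the members responded to SET siRNA in WT-labelled cells. FAS rose from 10.2 ± 0.146 to 27.0 ± 0.685 FPKM (SD, n = 3 each), 2.66-fold, TNFRSF10B from 34.9 ± 0.760 to 79.4 ± 0.803, 2.28-fold, and EDA2R from 17.3 ± 0.550 to 38.7 ± 1.39, 2.23-fold. CASP8 and CFLAR rose less, 1.26-fold and 1.20-fold. Of the 7 tested members 5 were higher at an adjusted p below 0.05 (limma, Benjamini-Hochberg over 14813 genes) and the other 2 did not pass; of all tested genes 30.8% were called higher and 24% lower, 54.8% in all. The median log2 difference was 0.32 over the 7 members and 0.04 over all tested genes. FAS ranked 113, TNFRSF10B 159 and EDA2R 172 from the top of the 14813 genes by log2 difference.

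On the log2(FPKM + 1) scale, which understates changes of low genes, the difference for FAS was 1.33 (SE 0.0702, 95% interval 1.17 to 1.48, limma adjusted p = 1.12e-06). It was 1.16 for TNFRSF10B (SE 0.0405, interval 1.07 to 1.26, adjusted p = 1.61e-07) and 1.11 for EDA2R (SE 0.0510, adjusted p = 6.26e-07). The intervals of these 3 receptors lie above those of the intracellular members. CASP8 differed by 0.32 (0.20 to 0.44, adjusted p = 0.000689) and CFLAR by 0.25 (0.10 to 0.40, adjusted p = 0.00906). FADD, at -0.12 (-0.24 to 0.01, adjusted p = 0.105), did not pass, although median-of-ratios scaling gave -0.16 with an adjusted p of 0.0348. TNFRSF10C did not pass either, at -0.29 (-0.69 to 0.10, adjusted p = 0.179).

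**Figure D2:**
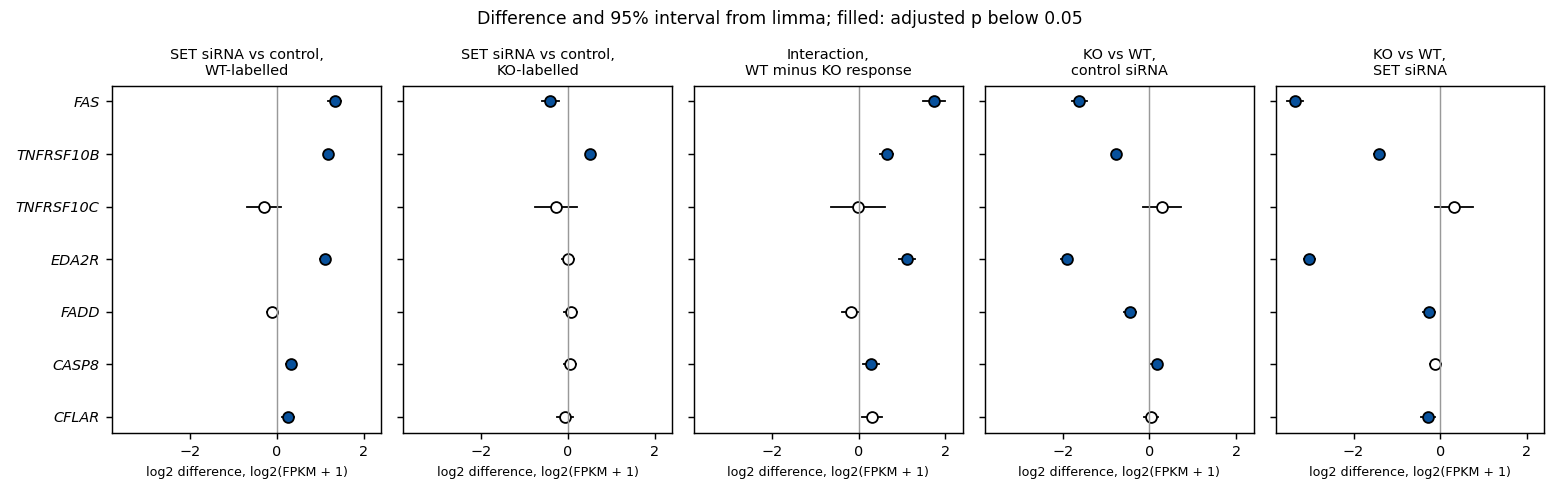
Log2 difference of FPKM + 1 (horizontal axis) with its 95% interval for the 7 tested members (vertical axis) in 5 comparisons, one per panel; filled points passed a limma adjusted p below 0.05. FAS, TNFRSF10B and EDA2R lie to the right of 0 for SET siRNA in WT-labelled cells and to the left in both comparisons of KO-labelled with WT-labelled cells.

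In KO-labelled cells the same siRNA moved 2 of the 7 tested members, in opposite directions. TNFRSF10B rose from 20.0258 ± 0.854 to 29.2 ± 1.19 FPKM (SD, n = 2 each), a log2 difference of 0.52 (0.41 to 0.63, limma adjusted p = 8.12e-05) and rank 826 from the top. FAS fell from 2.66 ± 0.479 to 1.75 ± 0.152 FPKM, a log2 difference of -0.41 (-0.60 to -0.22, adjusted p = 0.00557). The FAS call was lost when the fit held only the 4 KO-labelled libraries, with the same difference and an adjusted p of 0.0699. Among all tested genes 19.8% were called higher and 17.9% lower, 37.6% in all, so 2 of 7 is no larger a share than that of all genes.

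Of the remaining members, EDA2R showed a difference of 0.00 in KO-labelled cells, with an interval of -0.14 to 0.14 (limma adjusted p = 0.99). The differences were 0.07 (-0.09 to 0.22) for FADD, 0.04 (-0.10 to 0.19) for CASP8, -0.07 (-0.25 to 0.11) for CFLAR and -0.28 (-0.76 to 0.20) for TNFRSF10C. Their adjusted p-values ran from 0.337 to 0.627, and the difference of TNFRSF10C was 0.06 without KO_siSET replicate 2.

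The difference between the 2 lines in the response to SET siRNA was tested directly as an interaction. It was positive, meaning a more positive log2 difference in WT-labelled cells, for FAS at 1.74 (1.48 to 1.99, limma adjusted p = 8.86e-05), EDA2R at 1.11 (0.93 to 1.30, adjusted p = 0.00013) and TNFRSF10B at 0.64 (0.50 to 0.79, adjusted p = 0.000495). TNFRSF10B thus rose in both lines, and by more in the WT-labelled one. CASP8 passed at 0.28 (0.09 to 0.46, adjusted p = 0.0436) and CFLAR did not at 0.32 (0.09 to 0.55, adjusted p = 0.057). FADD at -0.18 (adjusted p = 0.169) and TNFRSF10C at -0.02 (adjusted p = 0.97) did not pass.

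These 4 of 7 positive interactions compare with 10.5% positive and 8.6% negative, 19.1% in all, among all tested genes. FAS ranked 49, EDA2R 106 and TNFRSF10B 453 of 14813 from the top. The CASP8 call depended on which libraries were in the fit. It was lost in 12 of 18 alternatives, among them those without WT_siCtr replicate 1 (limma adjusted p = 0.0924) or 2 (0.0869), WT_siSET replicate 2 (0.0955) or 3 (0.0767), KO_siCtr replicate 2 (0.122) and KO_siSET replicate 1 (0.124) or 2 (0.112). CFLAR passed under 3 alternatives, one of them without KO_siCtr replicate 1 (0.0309). The interaction is also the comparison whose count over all genes moved most, from 2831 to 1136 without KO_siSET replicate 1 and to 4587 without KO_siCtr replicate 1.

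The lines were then compared under control siRNA. EDA2R was 4.45-fold lower in KO_siCtr than in WT_siCtr, FAS 3.82-fold, TNFRSF10B 1.74-fold and FADD 1.38-fold. Their log2 differences were -1.91 (-2.03 to -1.78, limma adjusted p = 4.97e-08), -1.62 (-1.79 to -1.44, adjusted p = 9.79e-07), -0.77 (-0.87 to -0.67, adjusted p = 3.02e-06) and -0.44 (-0.58 to -0.30, adjusted p = 0.000483). Counted from the lowest of the 14813 genes, EDA2R ranked 73, FAS 112 and TNFRSF10B 571. Of the 7 tested members 4 were lower and 1 higher, against 22.2% lower and 25.7% higher, 47.9% in all, over all genes.

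The higher member was CASP8, at 0.16 (0.03 to 0.29, limma adjusted p = 0.0433). That call was lost in 12 of 19 alternatives, including those without WT_siCtr replicate 1 (0.115) or 2 (0.107), WT_siSET replicate 2 (0.0614), KO_siCtr replicate 2 (0.212) and KO_siSET replicate 1 (0.0636) or 2 (0.0637). CFLAR at 0.04 (adjusted p = 0.691) and TNFRSF10C at 0.30 (adjusted p = 0.231) did not pass.

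With SET siRNA in both lines, 5 of the 7 tested members were lower in the KO-labelled line and the other 2 did not pass, against 24.8% lower and 23.6% higher, 48.4% in all, over all genes. FAS was 15.5-fold lower, a log2 difference of -3.35 (limma adjusted p = 5.94e-09) at rank 28 from the lowest, and EDA2R 9.93-fold lower, a difference of -3.02 (adjusted p = 1.75e-09) at rank 38. TNFRSF10B was 2.72-fold lower, with a difference of -1.42 (adjusted p = 3.65e-08) at rank 207. CFLAR (-0.28, adjusted p = 0.0104) and FADD (-0.26, adjusted p = 0.00699) were also lower, but neither passed without KO_siSET replicate 2 (0.084 and 0.0604). CASP8 did not pass at -0.12 (adjusted p = 0.129). TNFRSF10C did not pass at 0.32 (adjusted p = 0.21), and without KO_siSET replicate 2 it was at 0.65 with an adjusted p of 0.0229. Each group enters more than one of the 5 comparisons, so the comparisons are not independent of each other.

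The order of the members by FPKM differed between the groups. In WT_siCtr it was TNFRSF10B, FADD, EDA2R, CASP8, CFLAR, FAS and TNFRSF10C, and CASP8 and CFLAR, at 15.8 ± 0.665 and 14.98 ± 1.09 FPKM, overlapped in their library values. In WT_siSET EDA2R stood above FADD, and FAS above CASP8 and CFLAR, with overlapping values of FADD (28.4 ± 1.32) and FAS (27.0 ± 0.685). In both KO-labelled groups EDA2R and FAS were below all 3 intracellular members, and FAS overlapped with TNFRSF10C. The other neighbours in these orders, among the 7 tested members, did not overlap.

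A pair of ratios sets opposing members side by side, without a test. The decoy to signalling TRAIL receptor ratio, (TNFRSF10C + TNFRSF10D) over (TNFRSF10A + TNFRSF10B), was 0.0540, 0.0394 and 0.0433 in WT_siCtr, 0.0149, 0.0174 and 0.0107 in WT_siSET, 0.120 and 0.0968 in KO_siCtr, and 0.0809 and 0.0357 in KO_siSET. It was lowest in the WT_siSET libraries, and signalling receptor FPKM exceeded decoy FPKM in all 10. The CFLAR to CASP8 ratio was 0.952 ± 0.106 (SD, n = 3) in WT_siCtr, 0.904 ± 0.0756 (n = 3) in WT_siSET, 0.865 ± 0.0244 (n = 2) in KO_siCtr and 0.798 ± 0.0312 (n = 2) in KO_siSET. Its ranges overlapped between the siRNA groups of the WT-labelled line, where CFLAR and CASP8 both rose.

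**Figure D3:**
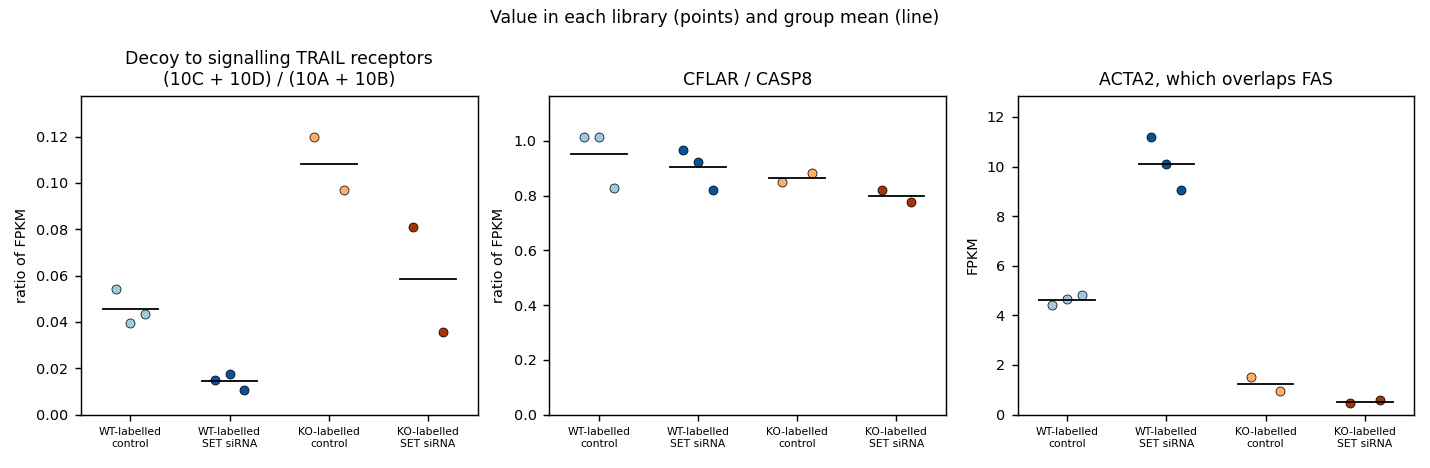
The decoy to signalling TRAIL receptor ratio, the CFLAR to CASP8 ratio and the FPKM of ACTA2 (vertical axes) in each library by group (horizontal axis); points are libraries and bars are group means. The TRAIL ratio is lowest in WT_siSET, and ACTA2 follows the group order of FAS.

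Genes that overlap a member share its interval in the files, and strand is not stated, so reads in shared stretches cannot be told apart. FAS shares 860 bases with ACTA2, the smooth muscle actin gene, and 1554 with FAS-AS1. ACTA2 was at 4.41, 4.64 and 4.83 FPKM in WT_siCtr, 11.2, 10.1 and 9.07 in WT_siSET, 1.52 and 0.933 in KO_siCtr, and 0.462 and 0.578 in KO_siSET. Like FAS it was higher with SET siRNA in the WT-labelled line, by 0.98 on the log2 scale (limma adjusted p = 6.84e-05), and lower in the KO-labelled line, by -0.54 (adjusted p = 0.0107). The latter call was lost without KO_siSET replicate 1 (0.0677) and in the fit of the 4 libraries alone (0.0556). FAS-AS1 was below the filter, with means of 0.147, 0.658, 0.233 and 0.0788 FPKM in WT_siCtr, WT_siSET, KO_siCtr and KO_siSET. TNFRSF10B shares 959 bases with LOC286059, which was below the filter, with means of 0.0366, 0.114, 0.0118 and 0.112 FPKM in the same order, and 65 bases with RHOBTB2, with means of 7.83, 6.58, 7.26 and 7.72. CFLAR shares 17504 bases with CFLAR-AS1, which was higher with SET siRNA in WT-labelled cells (0.56, adjusted p = 0.0218), a call lost without WT_siCtr replicate 2 (0.44, 0.0774), without WT_siSET replicate 3 (0.38, 0.0653) and with no filter (0.0693).

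Across the 10 libraries, FAS and EDA2R had a Pearson correlation of log2(FPKM + 1) of 0.993, FAS and TNFRSF10B 0.901, and TNFRSF10B and EDA2R 0.911. TNFRSF10B and TNFRSF10C were at -0.72. Among 10470 tested genes with mean FPKM of at least 5, the most alike were BBS2 (r = 0.9984), C12orf5 (0.9978) and C1orf183 (0.9955) for FAS, and RRM2B (0.9994), a second entry of INPP5D (0.999) and DRAM1 (0.998) for EDA2R. For TNFRSF10B, FLJ38723 (0.9956) and TRIM35 (0.9946) were among the closest.

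For the other members the closest genes were CORO7 (0.9901), EDC4 (0.9898) and HLA-F (0.9886) for FADD, and TTC8 (0.975), BPNT1 (0.9638) and GTDC1 (0.961) for CASP8. CFLAR was closest to C12orf23 (0.9193), RHOB (0.9186) and CCNYL2 (0.9181), and TNFRSF10C to DLST (0.9097), PRDX2 (0.8874) and HSPB2 (0.8623). These correlations are descriptions over 10 libraries in 4 groups, which share the group structure and the per-library scaling.

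The ligands of the member receptors were low. TNFSF10 reached at most 0.428 FPKM and FASLG at most 0.0423 in any library, and neither was tested. EDA averaged 2.80 ± 0.157 FPKM in WT_siCtr and 1.70 ± 0.147 in WT_siSET (SD, n = 3 each), a log2 difference of -0.49 (limma adjusted p = 0.000635), opposite in direction to its receptor EDA2R. In the KO-labelled line EDA was at 2.96 ± 0.438 and 2.14 ± 0.0966 FPKM (n = 2 each), a difference of -0.33 (adjusted p = 0.025) that did not pass without KO_siCtr replicate 1 (-0.22, 0.130), KO_siSET replicate 1 (0.0721) or KO_siSET replicate 2 (0.118). The gene-level value does not separate the A1 and A2 isoforms of EDA.

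The list of ligands and other receptors holds 16 genes, including FASLG, TNFSF10 and EDA from above, and 9 of the 16 were tested. In WT-labelled cells 2 rose and 2, among them EDA, fell with SET siRNA. Of all tested genes 30.8% were called higher and 24% lower. The median log2 difference was 0.07 for the list, against 0.04 over all tested genes. TNFRSF11B, the soluble decoy osteoprotegerin, rose by 0.43 (limma adjusted p = 0.00448), and RELT by 0.24 (adjusted p = 0.0154), a call lost without WT_siSET replicate 3 (0.0525). In KO-labelled cells 4 rose and 2, again with EDA, fell, with a median of 0.19 against 0.02 over all genes. Of all tested genes 19.8% were called higher and 17.9% lower in these cells. TNFRSF11B rose there by 0.94, from 5.67 ± 0.267 to 11.8 ± 0.289 FPKM, NGFR by 0.90 and RELT by 0.90. With control siRNA 7 of the 9 were lower in the KO-labelled line and the other 2 did not pass, with a median of -0.49 against 0.02 over all genes. Of all tested genes 22.2% were called lower and 25.7% higher in this comparison. TNFRSF1A, the TNF receptor with a death domain, was at 43.3 ± 3.47 against 65.0 ± 2.19 FPKM (-0.58, adjusted p = 5.84e-05). TNFRSF11B differed by -0.73 and TNFRSF25 by -0.70, the latter call lost without KO_siCtr replicate 2 (0.167).

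Of 25 genes for complex components and adaptors 23 were tested. In WT-labelled cells, where 30.8% of all tested genes were called higher and 24% lower, 10 rose and 1 fell with SET siRNA, with a median of 0.16. The largest changes were those of PIDD, a p53-induced death domain protein (0.86, limma adjusted p = 6.79e-05), PEA15, a death effector domain protein (0.63, adjusted p = 1.72e-05), and DEDD2 (0.61, adjusted p = 2.09e-05). In KO-labelled cells, where 19.8% of all tested genes were called higher and 17.9% lower, 5 rose and the other 18 did not pass (median 0.13). The largest rises were those of PEA15 (0.87), DEDD2 (0.59) and RBCK1, a subunit of the linear ubiquitin ligase (0.56). The number called became 9 without KO_siCtr replicate 1 and 8 without KO_siCtr replicate 2. With control siRNA 11 were lower and 3 higher in the KO-labelled line (median -0.14), 9 in all without KO_siCtr replicate 2. Over all tested genes 22.2% were called lower and 25.7% higher in this comparison of lines. Within the list, the inhibitor of apoptosis gene BIRC3 was lowest relative to WT_siCtr (-1.56, adjusted p = 1.54e-06), followed by PIDD (-1.15) and the adaptor TRADD (-0.96).

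All 14 executioner and mitochondrial genes were tested. In WT-labelled cells 3 rose and 3 fell (median 0.03), against 30.8% called higher and 24% lower over all tested genes. DIABLO, an antagonist of caspase inhibitors, rose by 0.25 (limma adjusted p = 0.000996), while HTRA2 (-0.34, adjusted p = 0.000724) and the caspase substrate PARP1 (-0.28, adjusted p = 0.000191) fell. In KO-labelled cells 3 rose and 2 fell (median 0.10), against 19.8% called higher and 17.9% lower over all tested genes. BID, the CASP8 substrate that links to mitochondria, rose by 0.42 (adjusted p = 0.00737; 0.0632 without KO_siSET replicate 1), DFFA rose by 0.34 (adjusted p = 0.000923), and APAF1 differed by -0.83 (adjusted p = 0.00026). The KO-labelled count of 5 became 3 without KO_siSET replicate 1. With control siRNA 2 were higher in the KO-labelled line, 0 were lower and the other 12 did not pass (median 0.02). Over all tested genes 25.7% were called higher and 22.2% lower in this comparison. CYCS, which encodes cytochrome c, was among the higher genes (0.40, limma adjusted p = 0.00244). The count became 1 with no filter, with array weights and in the fit of only the libraries compared.

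**Figure D4:**
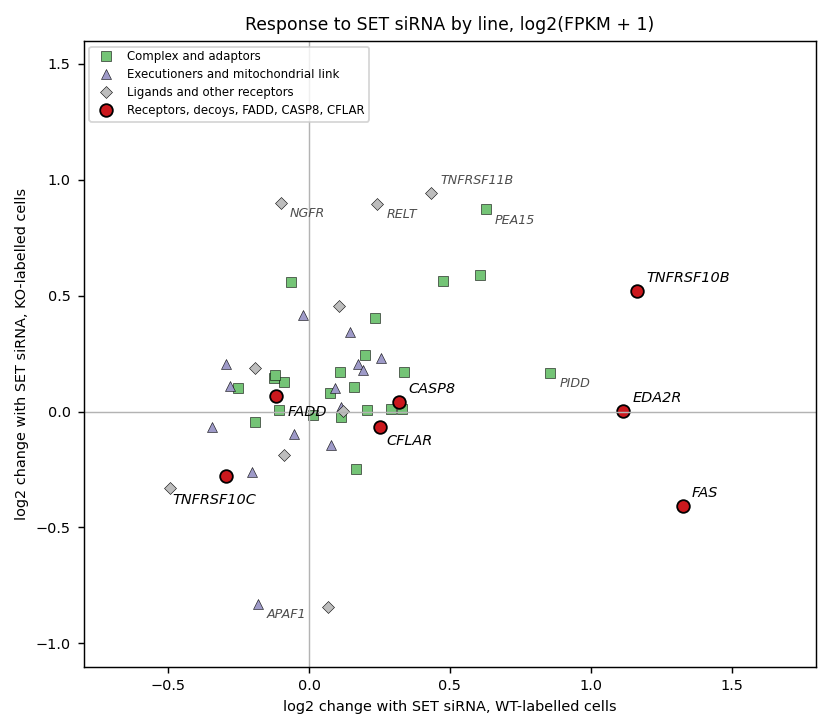
Log2 difference of FPKM + 1 with SET siRNA in WT-labelled cells (horizontal axis) against that in KO-labelled cells (vertical axis); each point is a tested gene, members and 3 pathway lists marked separately. FAS and EDA2R lie far to the right at or below 0 on the vertical axis, TNFRSF10B lies to the right at 0.52, and TNFRSF11B, NGFR, RELT and PEA15 lie high on the vertical axis.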

How the data were processed

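Gene expression was measured by RNA-seq (TruSeq libraries of total RNA) in 10 libraries, which were grouped by the sample labels. The deposited values are FPKM per gene with a confidence interval and a status, computed by the authors with Cufflinks, per the file headers. The submitters' processing notes name bcl2fastq 1.8.4, TopHat2 2.0.4 and Cufflinks 2.0.2. No genome build, annotation or strandedness is given in the sources used here. File coordinates are counted from 1, and sequences come from RefSeq, GRCh38.p14.

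A gene was tested if 2 or more libraries had it at an FPKM of 1 or above (14813 genes). limma 3.58.1 in R 4.3.3 fitted log2(FPKM + 1) in all 10 libraries and 4 groups with a trend in the variance, and a call is an adjusted p (Benjamini-Hochberg) under 0.05. The siRNA comparison in each line was tried on simulated data with independent noise and far fewer changed genes than were called here. The interaction and the comparisons of lines were not simulated. Python 3.11.15 with numpy 2.4.6, pandas 2.3.3 and matplotlib 3.10.9 did the remaining work.

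Depth is not stated. The authors' intervals imply fragment numbers, but between 72.7 and 74.1% of those of low genes with a single start site were whole within 0.05 of a fragment, so they are estimates and no count test was run. The intervals are given per library and do not hold the variation between libraries. They are not counting error alone either, because EDA at 2.64 and 2.82 FPKM implied 208 and 79 fragments in WT_siCtr replicates 1 and 3. SET implied 5148 and 4862 fragments in the same libraries. Between 13804 and 14153 genes per library had FPKM of at least 1, and the intervals' median reach above the value was 7.44 to 9.21%.

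The members and the pathway and marker lists were chosen with earlier results of these data known. Named genes are the members, the 3 called genes with the largest change per pathway list in each siRNA comparison and in KO-labelled against WT-labelled cells with control siRNA, the members' ligands, SET, CDKN1A and MDM2, and the 3 genes most correlated with each tested member; some items that this rule names are not reported here. Genes overlapping or lying next to a member, and genes whose response differed between the lines, were added after their values were seen. Alternatives were another pseudocount (0.1), other filters, scalings and variance models, array weights, a fit of only the libraries compared, a replicate block and leaving out each library.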

Additional observations from a re-analysis of the deposited data

Results flagged for a closer look

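Several genes named above responded differently to SET siRNA in the 2 lines by the interaction in the limma fit, each given as the log2 difference in WT-labelled minus KO-labelled cells. Among the members these were FAS (1.74, adjusted p = 8.86e-05), EDA2R (1.11, 0.00013), TNFRSF10B (0.64, 0.000495) and CASP8 (0.28, 0.0436). FAS is the member that was called in both lines with opposite signs, 1.33 and -0.41. The overlapping gene ACTA2 had the same signs (1.52, limma adjusted p = 0.000832), with 0.98 and -0.54. In KO-labelled cells ACTA2 was low, at 7 to 31 implied fragments per library, and its call there was lost in 2 of 19 alternatives. The p53 targets CDKN1A (0.74, 0.000469) and MDM2 (2.10, 4.90e-05) also had more positive differences in the WT-labelled line, as did PIDD (0.69, 0.014; 0.0636 without KO_siSET replicate 1). APAF1, the scaffold of the apoptosome, was at 0.65 (0.00965), with differences of -0.18 and -0.83 in the WT-labelled and KO-labelled lines.

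A negative interaction is a more positive log2 difference in the KO-labelled line. Among receptors and effectors named above it was called for NGFR (-1.0004, limma adjusted p = 0.00772), RELT (-0.65, 0.00536), the decoy TNFRSF11B (-0.51, 0.0478), BID (-0.44, 0.0338) and PARP1 (-0.39, 0.0031). Of 9 tested ligands and other receptors 1 was called positive and 4 negative. Of 23 tested complex components and adaptors these were 2 and 4, and of 14 executioner and mitochondrial genes 1 and 2. Over all tested genes 10.5% were called positive and 8.6% negative. Not every called gene of these lists is named. In WT-labelled cells RELT and TNFRSF11B rose, PARP1 fell, and NGFR (-0.10) and BID (-0.02) did not pass. TNFRSF11B did not pass in 11 and BID in 7 of 18 alternatives, with adjusted p-values up to 0.143 and 0.137, both reached without KO_siSET replicate 1. Their part in the members' pattern was not tested.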

How the results depend on the processing

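No called log2 difference changed sign under any alternative that was run. Some that did not pass the test did: TNFRSF10C ran from -0.61 to 0.06 with SET siRNA in KO-labelled cells, from -0.35 to 0.32 in the interaction and from -0.02 to 0.65 between the lines with SET siRNA, EDA2R in KO-labelled cells from -0.05 to 0.05, and CFLAR between the lines with control siRNA from -0.03 to 0.10. Over all genes with SET siRNA in WT-labelled cells, 4564 were higher and 3553 lower, and 3864 and 4191 under median-of-ratios scaling. Of 193 results, 113 alternative values lost a call, 39 gained one, 40 moved beyond the spread or 1.5 times, and 3297 did neither. FAS, TNFRSF10B and EDA2R kept their calls in every alternative of every comparison in which they passed, except FAS with SET siRNA in KO-labelled cells, where a fit of only the libraries compared called 1 member in place of 2. That fit called 3202 of all genes in place of 5571, and fewer samples estimate its spread. Leaving out 1 library gave 3442 (without KO_siSET replicate 1) to 5816 calls there, and 3683 without KO_siSET replicate 2. For the interaction it gave 1136 to 4587 calls in place of 2831, with 1465 without KO_siSET replicate 2, 1726 without KO_siCtr replicate 2, and 1822 and 1759 without WT_siSET replicates 1 and 2. Leaving out a KO-labelled library leaves 1 in its arm, which is then assumed to vary like the others. Members called ranged from 5 to 6, 1 to 2, 3 to 5, 4 to 5 and 4 to 5 over all alternatives of the comparisons in the order given in the text. With the authors' lower interval bounds, the decoy to signalling ratio was 0.0303 in WT_siCtr, 0.00847 in WT_siSET and 0.0817 in KO_siCtr, since the bound of the low gene TNFRSF10C is far below its value. Same-numbered libraries deviated together in 3 of 13 pairs (r over 0.1, range -0.101 to 0.263). Libraries of other numbers ranged from -0.263 to 0.163. Deviations were taken from group means, so those of the KO-labelled groups (n = 2) mirror each other, and whether the numbers pair the samples cannot be decided. A fit with the replicate block called 3400 genes for the interaction and added CFLAR (limma adjusted p = 0.0306). Depth limits TNFRSF10A, TNFRSF10C and TNFRSF10D most. The cause of these changes was otherwise not tested.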
